A study of Homo sapiens with 8 samples.

Results

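The ISG15 conjugation machinery comprises the small modifier ISG15, the enzymes that attach it to other proteins and the protease that removes it. Its 7 genes were taken by symbol from a count table of 57445 human genes: ISG15, the E1 gene UBA7, the E2 gene UBE2L6, the ligase genes HERC5, HERC6 and TRIM25, and the protease gene USP18. Each symbol matched 1 row. All 7 passed the filter on low counts, with at least 48 counts in every library, so none was kept only because of the group in which it was high.

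The carcinoma cells were MDA231-BrM2, derived from the human breast cancer line MDA-MB-231 by its spread to brain, with ribosomes that carry a GFP tag. Translating ribosome affinity purification (TRAP) pulled tagged polysomes down with an anti-GFP antibody, and the attached RNA was sequenced. The 4 groups had 2 independent libraries each: cells with a first Cx43 hairpin cocultured with astrocytes, cells with a second Cx43 hairpin cocultured with astrocytes, cells with a control hairpin cocultured with astrocytes, and cells with the control hairpin alone. Cocultures held 1 astrocyte per carcinoma cell for 24 h. All groups share the line and the tag, no group held Cx43-hairpin cells without astrocytes, and the species of the astrocytes is not given in the sources used here. The values are amounts of ribosome-associated mRNA, and total RNA or protein was not analysed here. In such pooled material, a change in the number of contributing cells and a change in RNA per cell cannot be told apart. The question addressed was how contact with astrocytes, and connexin 43 (Cx43, encoded by GJA1 and the subunit of gap junction channels), altered the RNA translated in the carcinoma cells.

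ISG15 is a ubiquitin-like protein made in response to interferons. UBA7 activates it, UBE2L6 receives it, and an E3 ligase, mainly HERC5 in human cells, joins it to target proteins, often during their translation. USP18 removes it again and, in a separate role, restrains the type I interferon receptor. Interferon signalling drives these genes largely through a complex that includes STAT2 and IRF9 and binds a sequence called the interferon-stimulated response element (ISRE).

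The deposited values came with no promoter positions, so the region before the start was read from the RefSeq promoter table on build GRCh38.p14, which held 6 windows for 5 of the 7 genes. UBA7 and USP18 were not among them. The ISRE core searched was GAAA, any 2 bases and GAAA again, on either strand, in windows running from 250 bases before to 50 bases after the start. It occurred in the windows of ISG15 and HERC5, that is in 2 of 6 member windows (33.3%), against 1255 of all 35116 windows (3.57%). The palindromic core of the gamma-activated site, TTCNNNGAA, occurred in 0 of 6 member windows and in 2689 of all windows (7.66%). The 130 bases before the start are shown for ISG15 and HERC5, because they hold the matches, and for HERC6, which lies next to HERC5 on chromosome 4 and held none. Capitals mark ISRE core matches, and each sequence is the plus strand, read 5′ to 3′.
ISG15, chr1:1013367-1013496: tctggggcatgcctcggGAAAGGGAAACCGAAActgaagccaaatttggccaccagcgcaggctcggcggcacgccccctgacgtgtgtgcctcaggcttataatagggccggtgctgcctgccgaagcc
HERC5, chr4:88456989-88457118: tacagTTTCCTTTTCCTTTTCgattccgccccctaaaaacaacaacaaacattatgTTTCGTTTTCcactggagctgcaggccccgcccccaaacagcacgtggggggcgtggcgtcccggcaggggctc
HERC6, chr4:88378722-88378851: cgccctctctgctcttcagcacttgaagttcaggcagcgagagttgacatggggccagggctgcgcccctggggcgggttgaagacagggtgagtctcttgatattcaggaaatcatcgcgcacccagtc
In ISG15 the matches GAAAGGGAAA and GAAACCGAAA overlap. In HERC5 the matches lie on the minus strand and read TTTCCTTTTC, which occurs as an overlapping pair, and TTTCGTTTTC on the strand shown. A match describes the letters of the window, and the absence of a match says nothing about other sequence around a gene.

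Depth was high for the members. Gene counts ran from 38219702 to 48997555 per library, and 3 counts corresponded to 0.0624 to 0.0805 CPM (counts scaled to the TMM-adjusted total of a library). Alignments that were not unique made 14.2% to 26.1% of each library's total in the table, with the highest share in library 1 of the control coculture. Its part in the results was not tested. The targeted gene GJA1 read 27.8 and 27.8 CPM under hairpin 1 and 31.7 and 33.8 CPM under hairpin 2, against 65.9 and 64.6 CPM in the control coculture, with 51.1 and 46.3 CPM in control cells alone. Relative to the control coculture, its level fell by 1.23 with hairpin 1 and by 1.00 with hairpin 2 on the log2 scale (adjusted p = 1.86e-05 and 8.15e-05), so part of the GJA1 RNA remained. Which cells that RNA came from was not tested, and Cx43 protein was not analysed here. Of the line's usual markers VIM was abundant and moved with the members, at 1488 CPM under hairpin 1 and 1364 CPM under hairpin 2, against 2134 CPM in the control coculture, with 1410 CPM in control cells alone (group means). It rose by 0.60 in the control coculture (adjusted p = 0.00215) and fell by 0.58 with both hairpins (adjusted p = 0.00155). Of the 5 markers listed as high in this line, CD44 and KRT18 were also highest in the control coculture by group mean. EGFR and AXL were lowest there, AXL with 1176 CPM against 1483 CPM in control cells alone. VIM was the only 1 of the 5 called higher in the control coculture, where 8.74% of all tested genes rose, and the list's median log2 change was 0.07. ESR1 and CDH1 were below 1 CPM. ERBB2 and EPCAM, listed as low in this line, were at 57.4 to 65.9 and 8.66 to 11.9 CPM. Of 10 astrocyte markers 7 were tested, and GJB6, S100B and AQP4 were at or near 0. The list summed to 63.8 and 72.1 CPM under hairpin 1, 58.2 and 58.4 CPM under hairpin 2, 69.95 and 71.3 CPM in the control coculture, with 51.5 and 55.6 CPM in control cells alone. In the control coculture 3 of the 7 rose over control cells alone, where 8.74% of all tested genes did (GFAP by 0.62, SLC1A3 by 0.89 and SOX9 by 0.35 on the log2 scale). None of the 7 fell, where 2.93% of all tested genes did. By group mean SLC1A2 and ALDOC were also higher there. FGFR3 and ALDH1L1 were lower, at 1.84 and 1.13 CPM, against 2.33 and 1.30 CPM in control cells alone. SOX9 made most of the list's sum, with group means of 47.7 CPM in the control coculture and 37.5 CPM in control cells alone. With both hairpins 1 of the 7 fell, SLC1A3 by 0.48, where 5.85% of all tested genes fell. The SOX9 call was lost without any 1 library of hairpin 2, the control coculture or control cells alone, and the SLC1A3 call with the hairpins without any 1 library of hairpin 2 or the control coculture. GFAP read 16.5 and 16.9 CPM under hairpin 1, 11.7 and 12.2 CPM under hairpin 2, 13.8 and 12.8 CPM in the control coculture, with 8.79 and 8.52 CPM in control cells alone. SLC1A3 read 3.65 and 3.57 CPM under hairpin 1, 4.10 and 3.89 CPM under hairpin 2, 5.01 and 5.61 CPM in the control coculture, with 2.67 and 3.04 CPM in control cells alone, so it was highest in the control coculture, as the members were, while GFAP was highest with hairpin 1. The microglial gene CSF1R rose by 1.16 in the control coculture, with the microglial list summing to 0.703 to 1.88 CPM over the libraries and AIF1 and TYROBP at 0. The CSF1R call was lost without control coculture library 1 or either library of control cells alone. Neuronal markers summed to 7.42 to 9.61 CPM, oligodendrocyte markers to 70.4 to 87.9 CPM, nearly all from MBP, and endothelial markers to 0.0241 to 0.159 CPM over the libraries. Of these 3 lists 2 neuronal, 2 oligodendrocyte and 0 endothelial genes were tested. None passed the test in the control coculture, where 11.7% of all tested genes did, so with so few genes the count says little. The part of these markers in the results was not tested.

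All 7 genes of the machinery were more abundant on ribosomes of control carcinoma cells when astrocytes were present, between 1.93-fold for TRIM25 and 15.5-fold for USP18. All 7 passed the test (edgeR quasi-likelihood, Benjamini-Hochberg adjusted p under 0.05 over 15806 genes), where 8.74% of all tested genes rose, 2.93% fell and 11.7% changed in either direction. The members' median log2 change was 2.00, and the median of all tested genes was -0.00256. For every member both control coculture libraries lay above both libraries of the control cells alone, as they did for 30% of all tested genes.

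Per kilobase of exon the modifier itself was the most abundant of the 7 in every group, and in CPM it was so in the control coculture only. ISG15 (ENSG00000187608.5) read 592 and 759 CPM in the control coculture, against 50.2 and 51.0 CPM in control cells alone. Behind these were 23047 and 28307 counts in the control coculture, and 2142 and 2451 counts in control cells alone. Both cocultured libraries stood more than 10-fold above both others, although the pair differed more from each other than the pair of control cells alone did. The rise was 3.74 ± 0.147 on the log2 scale (SE; adjusted p = 8.09e-07), the 28th largest rise among all tested genes.

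The activating enzyme was the least abundant. UBA7 (ENSG00000182179.6) read 4.09 and 4.75 CPM in the control coculture, against 1.83 and 0.998 CPM in control cells alone, and its lowest library held 48 counts. Its groups did not overlap, but the 2 libraries of control cells alone were themselves far apart. The rise was 1.66 ± 0.24 (SE; adjusted p = 0.00289), with the widest error of the 7. The E2 gene UBE2L6 (ENSG00000156587.11) read 211 and 236 CPM in the control coculture, against 68.0 and 70.6 CPM in control cells alone. It rose by 1.69 ± 0.0807 (SE; adjusted p = 2.78e-06), a change much like that of UBA7 from a far higher level.

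Among the ligases, HERC5 (ENSG00000138646.4), the main human ISG15 ligase, read 40.0 and 40.2 CPM in the control coculture, against 9.59 and 10.4 CPM in control cells alone. Its libraries agreed closely within each group, and the rise was 2.00 ± 0.0833 (SE; adjusted p = 1.16e-06). HERC6 (ENSG00000138642.10), its relative and the main ISG15 ligase in mouse, read 36.4 and 33.7 CPM in the control coculture, against 4.64 and 4.03 CPM in control cells alone. HERC6 lay below HERC5 in control cells alone and close to it in the control coculture, and its rise was larger, 3.02 ± 0.1 (SE; adjusted p = 2.67e-07). TRIM25 (ENSG00000121060.10), a ubiquitin ligase of the RIG-I pathway also reported to attach ISG15, read 167 and 154 CPM in the control coculture, against 85.1 and 81.8 CPM in control cells alone. It rose least, by 0.945 ± 0.0865 (SE; adjusted p = 2e-04), and ranked 438th among the rises. The span of TRIM25 overlaps those of the genes DGKE and C17orf67 in the GENCODE 29 annotation, and that of ISG15 overlaps an antisense gene. Whether their exons overlap was not checked. The library kit does not mark strand and the counting setting is not given in the sources used here. How reads from such overlaps were counted is therefore not known. Reads entered as ambiguous made 2.63% to 3.20% of each library's total in the table.

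The protease gene moved most. USP18 (ENSG00000184979.9) read 37.2 and 38 CPM in the control coculture, against 2.42 and 2.43 CPM in control cells alone. The pairs of libraries were nearly identical within each group, and the rise was 3.95 ± 0.0911 (SE; adjusted p = 2.95e-08). The rises of USP18 and ISG15 differed by less than the sum of their standard errors. USP41, a near-identical copy of USP18, had 0 counts in 7 libraries and 1 count in control coculture library 2, so how reads were split between the copies is uncertain.

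**Figure D1:**
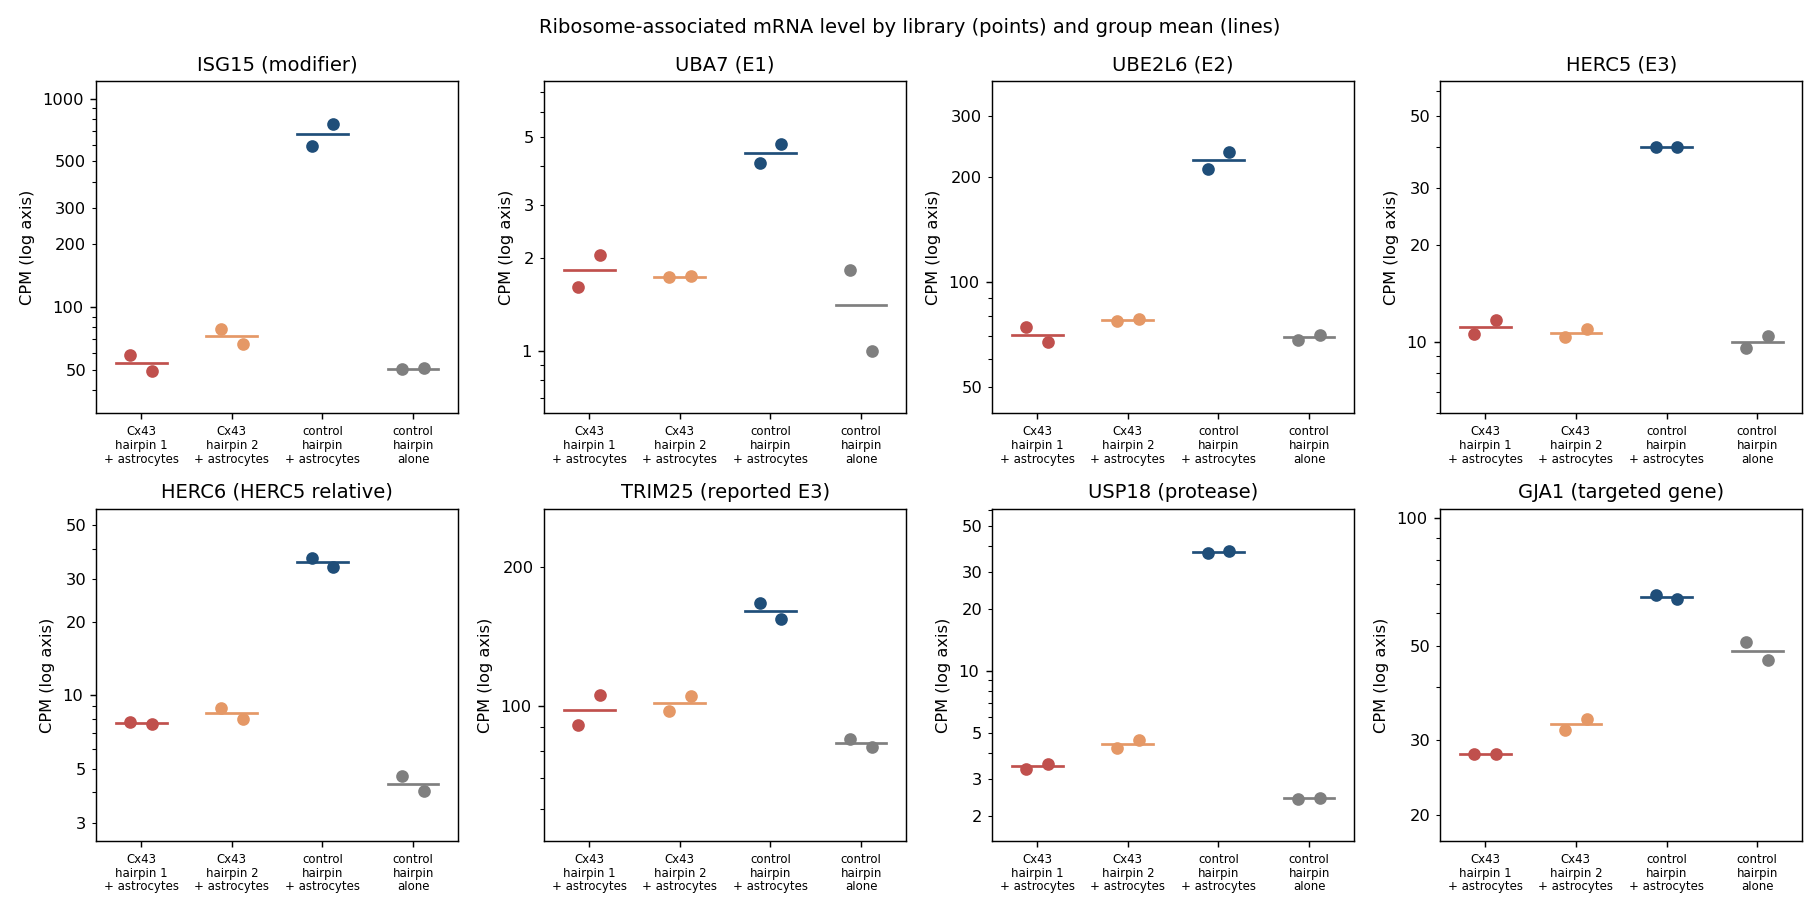
Ribosome-associated mRNA of the 7 genes and of GJA1 in CPM on log axes, 1 point per library and a line at each group's mean (n = 2 libraries). For all 7 genes both control coculture points sit above all 6 other points, as is so for 11.4% of all tested genes.

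With either Cx43 hairpin, all 7 genes fell against the control coculture. Each hairpin passed the test for 7 of 7 genes, where 4.73% of all tested genes fell with hairpin 1 and 3.20% with hairpin 2, and the members' median log2 changes were -1.86 with hairpin 1 and -1.91 with hairpin 2. For both hairpins in 1 contrast, 7 of 7 fell, against 5.85% of all tested genes. These comparisons share the control coculture libraries with the comparison above, so their opposite signs are not independent of it. The changes of each gene are given as its own values.

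ISG15 read 58.7 and 49.5 CPM under hairpin 1 and 78.9 and 66.7 CPM under hairpin 2, against 592 and 759 CPM in the control coculture. The 4 hairpin libraries overlapped the 50.2 and 51.0 CPM of control cells alone at their low end. With both hairpins ISG15 was 10.8-fold lower, a log2 change of -3.43 ± 0.112 (SE; 95% interval -3.68 to -3.18; adjusted p = 2.54e-07).

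UBA7 read 1.62 and 2.05 CPM under hairpin 1 and 1.74 and 1.75 CPM under hairpin 2, against 4.09 and 4.75 CPM in the control coculture. It fell by 1.30 ± 0.196 on the log2 scale with both hairpins (SE; adjusted p = 0.00532), a call that did not hold without control coculture library 2 (adjusted p = 0.059). The call with hairpin 1 alone (adjusted p = 0.0168) was also lost without that library (0.104), and the call with hairpin 2 alone (adjusted p = 0.0159) was lost without that library (0.103) and without hairpin 2 library 1 (0.154) or 2 (0.174). UBE2L6 read 74.1 and 67.0 CPM under hairpin 1 and 77.2 and 78.3 CPM under hairpin 2, against 211 and 236 CPM in the control coculture. It was 3.02-fold lower with both hairpins (adjusted p = 1.19e-06), and its 4 hairpin libraries spanned the values of control cells alone.

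HERC5 read 10.5 and 11.6 CPM under hairpin 1 and 10.3 and 11 CPM under hairpin 2, against 40.0 and 40.2 CPM in the control coculture. It was 3.69-fold lower with both hairpins (adjusted p = 4.69e-07). HERC6 read 7.79 and 7.63 CPM under hairpin 1 and 8.87 and 8 CPM under hairpin 2, against 36.4 and 33.7 CPM in the control coculture, and was 4.35-fold lower with both (adjusted p = 4.69e-07). All 4 of its hairpin libraries stayed above the 4.64 and 4.03 CPM of control cells alone, which was not so for HERC5. TRIM25 read 91.1 and 106 CPM under hairpin 1 and 97.8 and 105 CPM under hairpin 2, against 167 and 154 CPM in the control coculture, and was 1.61-fold lower with both (adjusted p = 0.000809). Its fall with hairpin 2 alone, -0.66 ± 0.0861 (SE; adjusted p = 0.00358), was not called without library 1 of that hairpin (adjusted p = 0.0733).

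USP18 read 3.38 and 3.55 CPM under hairpin 1 and 4.24 and 4.66 CPM under hairpin 2, against 37.2 and 38 CPM in the control coculture. The fall was 9.57-fold with both hairpins, a log2 change of -3.26 ± 0.0676 (SE; adjusted p = 1.78e-08). Like HERC6, it remained above control cells alone in all 4 hairpin libraries.

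**Figure D2:**
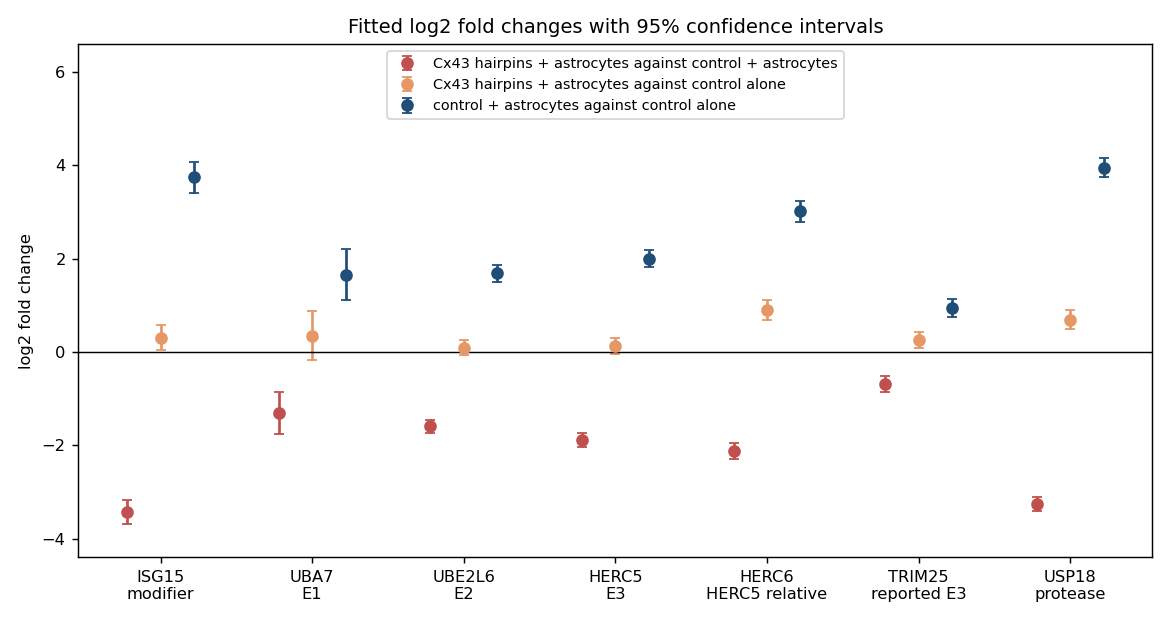
Log2 change of each of the 7 genes, with 95% intervals from the fit over all 8 libraries. Shown are the control coculture against control cells alone, and both Cx43 hairpins against the control coculture and against control cells alone. Rises of 0.945 to 3.95 in the control coculture stand opposite falls with both Cx43 hairpins. The changes of the hairpin cocultures against control cells alone lie between 0.10 and 0.90.

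The Cx43-hairpin cocultures and control cells alone were then set side by side, which combines the effects of astrocytes and of the hairpin because no Cx43-hairpin cells were sampled alone. Here 3 of 7 genes were higher in the hairpin cocultures, where 10.8% of all tested genes were, and none was lower, where 6.34% of all tested genes were. HERC6 averaged 7.71 ± 0.118 CPM under hairpin 1 and 8.44 ± 0.613 CPM under hairpin 2, against 4.34 ± 0.431 CPM in control cells alone (SD, n = 2 each), a log2 difference of 0.90 ± 0.0941 (SE; adjusted p = 0.000781). USP18 averaged 3.46 ± 0.121 CPM under hairpin 1 and 4.45 ± 0.296 CPM under hairpin 2, against 2.42 ± 0.0123 CPM in control cells alone (SD, n = 2 each), a log2 difference of 0.70 ± 0.092 (SE; adjusted p = 0.0025). TRIM25 differed by 0.26 ± 0.0753 (SE; adjusted p = 0.0473), and this call was lost without any of 7 of the 8 libraries in turn, with adjusted p up to 0.237. ISG15 did not pass the test, at 0.31 ± 0.118 (SE; 95% interval 0.043 to 0.579; adjusted p = 0.102), and its hairpin libraries overlapped those of control cells alone. UBE2L6, HERC5 and UBA7 had differences of 0.10, 0.12 and 0.35 with adjusted p of 0.353, 0.288 and 0.309, and their groups overlapped. A difference called for HERC6 and not for HERC5 is not a tested difference between the 2 genes.

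As a share of the coculture rise in CPM, little of the ISG15 rise was left with the hairpins, 0.563% with hairpin 1 (-0.175% to 1.30% over its libraries) and 3.55% with hairpin 2 (2.58% to 4.53%). UBE2L6 kept 0.823% with hairpin 1 (-1.47% to 3.12%) and 5.49% with hairpin 2 (5.13% to 5.84%). HERC5 kept 3.64% with hairpin 1 (1.83% to 5.45%) and 2.18% with hairpin 2 (1.15% to 3.21%), the second being 0.467% without library 1 of control cells alone and 3.39% without library 2. USP18 kept 2.95% with hairpin 1 and 5.77% with hairpin 2. HERC6 kept more, 11% with hairpin 1 (10.7% to 11.2%) and 13.3% with hairpin 2 (11.9% to 14.7%). TRIM25, which had risen least, kept 19.2% with hairpin 1 (9.89% to 28.5%) and 23.2% with hairpin 2 (18.5% to 27.9%). For UBA7 the shares of 14% with hairpin 1 and 11% with hairpin 2 depended on control cells alone: they were 24.3% and 21.5% without library 1 of that group, and -0.448% and -3.55% without library 2. These shares are descriptions with no test.

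Because the genes moved by different amounts, their ratios to the modifier shifted. Within a library, scaling and depth cancel in such a ratio, and gene length cancels between groups. The log2 ratio of UBE2L6 to ISG15 was 0.39 with hairpin 1, 0.10 with hairpin 2, -1.59 in the control coculture and 0.45 in control cells alone. The ratio of HERC5 to ISG15 was -2.28 with hairpin 1, -2.77 with hairpin 2, -4.06 in the control coculture and -2.34 in control cells alone. The ratio of TRIM25 to ISG15 differed most, by -2.78 in the control coculture relative to control cells alone. The enzymes of attachment thus all rose less than their modifier, with ratios lower in the control coculture by between 0.71 for HERC6 and 2.78 for TRIM25. USP18 was the exception. Its log2 ratio to ISG15 was -4.12 and -3.80 with hairpin 1, -4.22 and -3.84 with hairpin 2, -3.99 and -4.32 in the control coculture, and -4.38 and -4.39 in control cells alone, while both genes differed more than 10-fold between the control coculture and the control cells alone. With 2 libraries a group these ratios are given without a test.

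**Figure D3:**
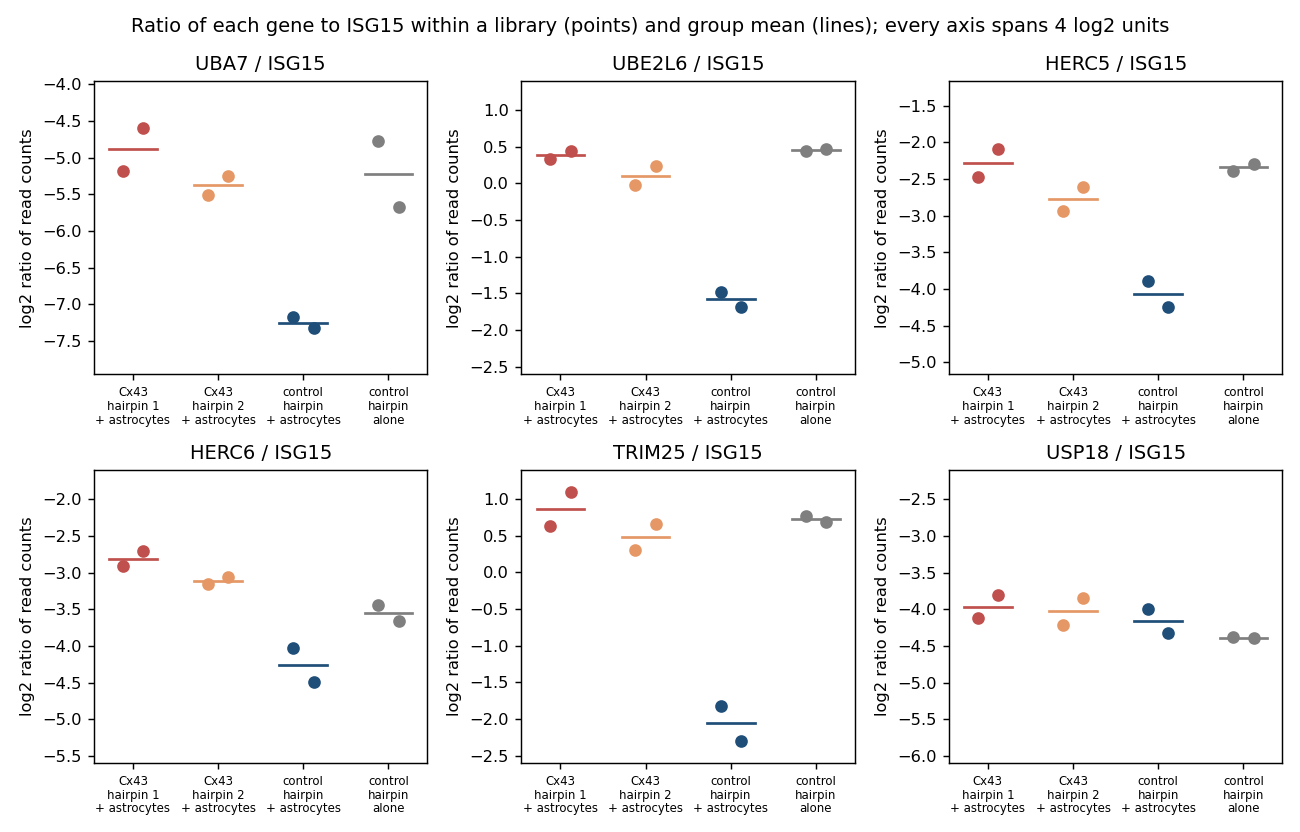
Log2 ratio of each of the 6 other genes to ISG15 within each library, 1 point per library, by group. For 5 genes the control coculture points lie below those of the other groups, while those of USP18 stay between -4.39 and -3.80 throughout.

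Because the genes differ in length, their levels were also compared per kilobase of exon (exon lengths from GENCODE 29). On that scale ISG15 had 718 CPM per kb in the control coculture, against 53.8 in control cells alone, followed by UBE2L6 with 102 in the control coculture, against 31.5 in control cells alone. TRIM25 stood at 16.9 in the control coculture, against 8.78 in control cells alone. HERC5 had 8.41 in the control coculture, against 2.10 in control cells alone, and HERC6 had 6.06 in the control coculture, against 0.749 in control cells alone. UBA7 was at 0.972 in the control coculture, against 0.311 in control cells alone. USP18 changed places in this order: it had 17.7 in the control coculture, close to TRIM25 and above both HERC ligases, against 1.14 in control cells alone, below HERC5.

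Between the hairpins no member passed the test, where 0.0316% of all tested genes did. DESeq2 also called none, and at an unadjusted p under 0.05 there were 2. ISG15 read 78.9 and 66.7 CPM under hairpin 2, against 58.7 and 49.5 CPM under hairpin 1, a log2 difference of 0.43 (95% interval 0.122 to 0.734; adjusted p = 0.705). USP18 read 4.24 and 4.66 CPM under hairpin 2, against 3.38 and 3.55 CPM under hairpin 1, a log2 difference of 0.36 (95% interval 0.14 to 0.588; adjusted p = 0.705). The hairpin groups did not overlap for these 2 genes, nor for UBE2L6 and HERC6, which makes 4 of 7 where 37.4% of all tested genes did not overlap. GJA1 differed by 0.24 between hairpin 2 and hairpin 1, short of the threshold (adjusted p = 0.705). With no filter on low counts ISG15 was called (adjusted p = 0.000513). For the other 5 genes the intervals of the difference ran from -0.66 to 0.516 for UBA7, the widest, and from -0.04 to 0.321 for UBE2L6, -0.254 to 0.139 for HERC5, -0.098 to 0.356 for HERC6 and -0.151 to 0.24 for TRIM25.

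The genes whose profiles over the 8 libraries lay nearest to each member were found by the Euclidean distance between log2 CPM values centred on each gene's mean, among 10890 genes. Nearest to ISG15 was IFI6, an interferon-induced mitochondrial protein gene, at a distance of 0.609, then TNFSF10 (the death ligand TRAIL) at 0.637, IFITM1 at 0.656, IFI27 at 0.704 and IFIT3 at 0.735. Among the members, USP18 was nearest to ISG15 at 0.612, and TRIM25 was farthest from it at 3.43. UBE2L6 and HERC5 were the closest pair of members at 0.478. The nearest non-member to UBA7 was IRF9 at 0.291, to UBE2L6 TRIM21 at 0.280, to HERC5 DDX60L at 0.303, to HERC6 SAMD9 at 0.233, to USP18 IFIT3 at 0.264, and to TRIM25 PDZD2 at 0.144. All points of these profiles come from the same 8 libraries, and the distance reflects how far a gene moved as well as its pattern.

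Several regulators of these genes changed too. Of 9 listed regulators, 5 rose and none fell in the control coculture, where 8.74% of all tested genes rose and 2.93% fell. With both hairpins 5 fell and 1 rose, where 5.85% of all tested genes fell and 3.37% rose. The median log2 changes were 0.37 and -0.27. IRF7, which amplifies interferon responses, read 16.9 and 18.3 CPM under hairpin 1 and 20.4 and 18.8 CPM under hairpin 2, against 101 and 99.0 CPM in the control coculture, with 13.5 and 12 CPM in control cells alone. STAT2 rose by 1.53 ± 0.145 in the control coculture (SE; adjusted p = 0.000243) and fell by 1.33 with both hairpins (adjusted p = 0.000249). IRF9, which acts with STAT2, read 2.57 and 2.98 CPM in the control coculture, against 1.06 and 0.624 CPM in control cells alone, a rise of 1.74 ± 0.248 (SE; adjusted p = 0.00268). The 1 regulator that rose with the hairpins was the receptor subunit gene IFNAR1, by 0.31 (adjusted p = 0.0159). It was chosen after its value was seen, and its call did not hold without hairpin 2 library 2 or without either control coculture library, with adjusted p up to 0.132. No listed interferon gene reached the filter. Of 21 in the table, 17 to 21 were at 0 in each library, and their sum was 0 to 0.0482 CPM in hairpin cocultures, 0.0537 and 0.103 CPM in the control coculture, with 0.187 and 0.211 CPM in control cells alone.

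Genes whose proteins are reported to carry ISG15 were mixed. Of 21, 6 rose and none fell in the control coculture, where 8.74% of all tested genes rose and 2.93% fell. With both hairpins 7 fell and none rose, where 5.85% of all tested genes fell and 3.37% rose. The median log2 changes were 0.06 and -0.13. The largest rise was that of MX1, an antiviral GTPase that is itself interferon-induced, by 6.07 ± 0.101 (SE; adjusted p = 7.76e-09), followed by IFIT1 with 5.36 ± 0.12 (SE; adjusted p = 2.58e-08). The list holds interferon-induced genes as well as others, and it overlaps the regulators at JAK1 and IRF3. Of 6 listed partners of ISG15 or USP18, 5 were tested and 3 rose in the control coculture, where 8.74% of all tested genes did. All 3 were already counted above, TRIM25 as a member and STAT2 and IFNAR2 as regulators. The other tested partners, SKP2 and ITGB2, did not pass the test. IFNAR2, the receptor subunit that USP18 binds, rose by 0.37 (adjusted p = 0.0208). The IFNAR2 call was lost in 3 fits without 1 library, either library of the control cells alone or control coculture library 1 (up to 0.161).

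Other modifier systems were read beside the members. Of 19 tested genes for ubiquitin, SUMO, NEDD8 and related modifiers and their E1 enzymes, none passed edgeR's test in the control coculture. Of all tested genes 11.7% did, so in a list this short the count alone says little. Among the 19, 3 had an unadjusted p under 0.05 and DESeq2 called none. The 19 genes had a median log2 change of -0.07 and a range of -0.24 to 0.09. The relatives of the members were mixed, with 2 of 8 tested called higher in the control coculture, where 8.74% of all tested genes were, and a median log2 change of 0.02. UBE2L3, an E2 related to UBE2L6 that serves ubiquitin, read 115 and 122 CPM in the control coculture, against 116 and 121 CPM in control cells alone. Of 8 tested relatives, TRIM21 rose by 1.63 ± 0.118 (SE; adjusted p = 4.18e-05) and TRIM56 by 0.60 ± 0.138 (SE; adjusted p = 0.0252), the TRIM56 call being lost in fits without either library of the control cells alone, either hairpin 2 library or control coculture library 1 (adjusted p up to 0.163). With both hairpins TRIM21 fell by 1.64 (adjusted p = 1.31e-05), as the members did. It was the only 1 of the 8 relatives that fell, where 5.85% of all tested genes did. Of the 6 other proteases reported to act on ISG15, none passed the edgeR or DESeq2 test in the control coculture, and 0 had an unadjusted p under 0.05. With 6 genes this count lies near the 11.7% of all tested genes that passed edgeR's test. With both hairpins, 1 of the 19 fell against the control coculture, near the 5.85% of all tested genes that fell. This was the ubiquitin gene UBB, by 0.41 (adjusted p = 0.0449). It was not called without any 1 of 6 libraries, each of hairpin 2, the control coculture and control cells alone (adjusted p up to 0.34).

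**Figure D4:**
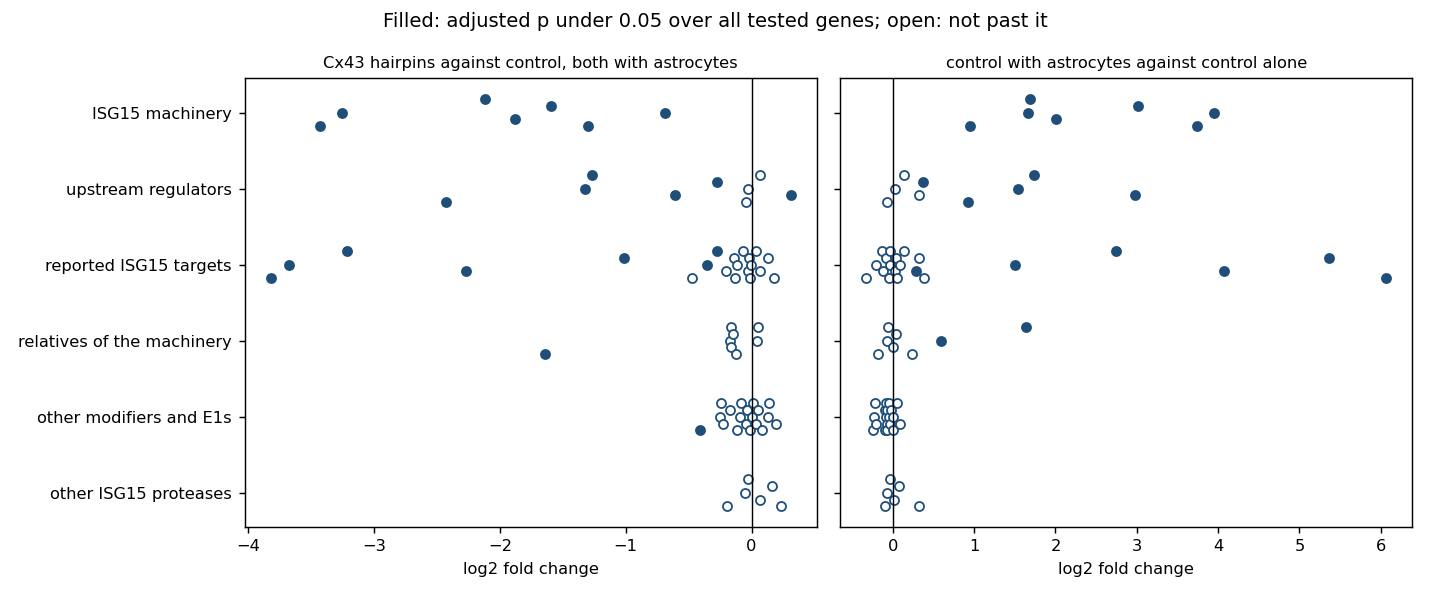
Log2 changes of single tested genes, 1 point each, in the lists set beside the 7 members, for the control coculture against control cells alone and for both Cx43 hairpins against the control coculture. All 7 members lie on one side of 0 in each comparison, while the 19 genes of other modifier systems stay between -0.24 and 0.09 in the control coculture.

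The genes next to the members in the RefSeq gene table were read for comparison. Of 8 tested neighbours, 3 rose in the control coculture and fell with both hairpins, where 3.37% of all tested genes did both, in comparisons that share the control coculture libraries. TRAIP, beside UBA7, went the other way and fell by 0.34 in the control coculture (adjusted p = 0.0371), a call lost without any 1 library of hairpin 2, the control coculture or control cells alone (adjusted p up to 0.155). HES4, beside ISG15 on chromosome 1 and a transcriptional repressor gene of the HES family, read 6.33 and 5.89 CPM under hairpin 1 and 8.41 and 7.50 CPM under hairpin 2, against 11.6 and 13.4 CPM in the control coculture, with 6.66 and 5.49 CPM in control cells alone. It rose by 1.04 ± 0.124 in the control coculture (SE; adjusted p = 0.000978) and fell by 0.84 with both hairpins (adjusted p = 0.00193). PPM1K, beside HERC6 on chromosome 4 and encoding a mitochondrial phosphatase, rose by 0.99 ± 0.0869 (SE; adjusted p = 0.000153) and fell by 1.05 with both hairpins (adjusted p = 4.42e-05). SERPING1, beside UBE2L6 on chromosome 11 and encoding the C1 inhibitor of complement, rose by 1.54 ± 0.167 (SE; adjusted p = 0.000569) and fell by 1.07 with both hairpins (adjusted p = 0.0022). AGRN, on the other side of ISG15, had a log2 change of -0.12 (adjusted p = 0.674), and DGKE and COIL, beside TRIM25, had 0.09 and -0.17 (adjusted p = 0.725 and 0.212).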

How the data were processed

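Polysome-associated RNA was pulled down with anti-GFP beads and prepared with the TruSeq RNA v2 kit, per the labels' protocols. Per the submitters' processing notes, the tools were TopHat2, HTSeq and DESeq2 and the build was hg19, without versions. The annotation and strand setting are not given in the sources used here. The deposited table holds counts per gene as whole numbers, although its name calls them normalized. They were treated as raw counts. Counter entries made up 27.1% to 37.4% of each column and were left out.

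The 15806 genes averaging 10 or more counts were tested with the quasi-likelihood test of edgeR 4.0.16 in R 4.3.3, TMM scaling and the 4 groups as the design. The common biological coefficient of variation was 7.66%. Adjustment over all tested genes followed Benjamini and Hochberg, with a threshold of 0.05. Only the test of the control coculture against control cells alone was tried on simulated counts, which had the same spread for all genes and groups. CPM used TMM-scaled totals. The standard error of a log2 change was derived from its F statistic. P-values rest on 1 estimate of the spread for each gene, shared by the 4 groups and moderated over genes. The 2 independent libraries of a group differed beyond counting error in every group, but not equally. The chi-square per degree of freedom between them was 32.6 for hairpin 1, 4.22 for hairpin 2, 22.15 for the control coculture and 13.4 for control cells alone. The shared estimate does not follow these differences between groups.

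The text names all 7 members, GJA1, the nearest profiles (5 for ISG15, 1 for each other member), genomic neighbours, and up to 4 tested genes a list with the smallest p. Other named genes were chosen after their values were seen. The members and lists were chosen with earlier results of these data known. Promoters and gene order came from RefSeq tables (GRCh38.p14), exon lengths from GENCODE 29. The 15 alternatives were DESeq2 1.42.0, no filter, edgeR's own filter (filterByExpr), RLE scaling in place of TMM, no scaling factors, only the groups compared, a replicate block and each library left out. Results for 2 genes of the lists are not reported here, and the lists are counted without them.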

Additional observations from a re-analysis of the deposited data

How the results depend on the processing

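With 2 libraries a group, single libraries set much of the spread, and counts of called genes moved with them more than the members did. Over 15 alternatives the log2 changes of members were on the same side of the threshold and of the same sign in 607 cases, lost the call in 16, gained it in 2 and changed sign in 5. All 7 members were called in the control coculture in all 15, and ISG15, UBE2L6, HERC5, HERC6 and USP18 in all 15 against the control coculture with each hairpin; HERC6 and USP18 were also called in all 15 against control cells alone. UBA7 with hairpin 2 was lost with a replicate block (adjusted p = 0.0508), and TRIM25 in both hairpins against control cells alone was lost with the block (0.0926) and with only the groups compared (0.0521); the block ended no other call of a member. Correlations of replicate differences between groups ran from -0.386 to 0.2. They cannot settle whether libraries of the same replicate number were handled together. Without control cells alone library 2, UBA7 in both hairpins against control cells alone turned to -0.042, and to 0.825 without library 1. Between the hairpins, leaving out 1 library moved UBA7 over -0.241 to 0.104 and HERC5 over -0.134 to 0.012, both changing sign without hairpin 1 library 2. It moved TRIM25 over -0.064 to 0.152, below 0 without hairpin 1 library 1 or hairpin 2 library 2 (-0.008). The USP18 to ISG15 ratio change with hairpin 2 ran over -0.06 to 0.318, below 0 without hairpin 2 library 2 or control coculture library 2 (-0.036). With no filter, ISG15 gained a call in both hairpins against control cells alone (0.31; adjusted p = 0.00137), and 1 member was called between the hairpins.

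Of all tested genes, 1844 were called in the control coculture against control cells alone, 1236 with hairpin 1, 658 with hairpin 2 and 1457 with both against the control coculture, 2709 with both against control cells alone, and 5 between the hairpins. In that order, leaving out 1 library gave 738 to 2582, 281 to 2405, 150 to 1101, 343 to 2314, 531 to 4717, and 0 to 3. The replicate block gave 1160, 446, 319, 700, 1502 and 0. No filter gave 2805, 2269 and 1191 for the first 3, 4117 against control cells alone and 304 between the hairpins. With only the groups compared, 236 were called with hairpin 1 and 2 between the hairpins, where no scaling gave 3 and DESeq2 gave 22. With no scaling factors the split with hairpin 1 was 826 higher and 586 lower, against 488 and 748 with them, and with both hairpins 786 and 699, against 533 and 924. The cause was not tested. Each group has 2 libraries, and depth was not varied.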
